A study of Homo sapiens with 18 samples.

Results

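Integrins are receptors made of 1 alpha and 1 beta subunit that span the plasma membrane and bind proteins of the extracellular matrix. Inside the cell, talins and kindlins bind the beta tail and switch the receptor on, and vinculin, paxillin, integrin-linked kinase and other adaptors tie it to actin at focal adhesions. In basal epithelial cells, integrin alpha6beta4 instead connects laminin-332 to keratin filaments through plectin and dystonin, in the hemidesmosome. RUNX1 is a DNA-binding transcription factor and CBFB is the non-DNA-binding partner that enhances its binding to DNA.

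The integrin subunit genes and the named adhesion genes were chosen by symbol. The symbols were those of integrin alpha and beta subunits, together with CD151, DST, PLEC, TLN1, TLN2, VCL, PXN, ILK, FERMT1, FERMT2, ZYX, PARVA, PTK2, BCAR1, NEDD9, LIMS1 and TNS3. This gave 42 genes, 25 integrin subunits and 17 others, of 19401 genes in any of the 3 deposited tables. Each table listed 41 of them. NEDD9 was not listed in the CBFB KO table and ITGAD was not listed in the RUNX1 tables. An adjusted p was given for 36 members in the CBFB KO table, 41 in the RUNX1 KO1 table and 40 in the RUNX1 KO2 table.

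The cells were MCF10A, an immortalized, non-tumorigenic human mammary epithelial line, grown without treatment in medium with horse serum, EGF, insulin, hydrocortisone and cholera toxin. RNA sequencing was done on 18 samples in 5 groups, namely CBFB KO (3 samples) with its own WT (3 samples), and RUNX1 KO1 (4 samples) and RUNX1 KO2 (4 samples) with 1 shared WT group (4 samples). Knockouts were made with CRISPR-Cas9 and grown from single cells, so that each knockout group was 1 clone and clone differences were part of each comparison. WT cells were MCF10A cells labelled WT, and nothing in the labels says that replicates came from separate cultures, so p-values measured the spread between these samples, which may be technical. Because both RUNX1 comparisons used the same WT samples, their values are set side by side and were not counted as separate evidence.

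The tables gave, for each gene, the mean normalized count over the samples compared, a log2 fold change (knockout minus WT) and its SE (standard error), and the adjusted p. They held no value per sample. Levels of WT and knockout were therefore worked back from the mean and the fold change, and they are approximate. Summed over genes, the means were 20214423, 18050386 and 16467400 in the CBFB KO, RUNX1 KO1 and RUNX1 KO2 tables. In the CBFB KO table, CBFB mRNA itself had a log2 fold change of -4.88. RUNX1 mRNA was higher in the RUNX1 clones (0.54 and 0.46, adjusted p = 1.45e-08 and 0.00470), so the mRNA level did not check that label. By immunoblot, the study reports RUNX1 deletion in MCF10A cells and a loss of RUNX1 protein in CBFB KO cells. Basal epithelial markers were present, with TP63 at means of 1606, 953 and 729.9, and KRT5 at 87894, 101688 and 95221. In CBFB KO and in RUNX1 KO1, 4 of 6 such markers were higher and 1 was lower, and 1 of 5 listed was higher in RUNX1 KO2. Of 3 further epithelial markers, 2 were higher in CBFB KO, 1 in RUNX1 KO1 and 0 in RUNX1 KO2. The 4 endothelial markers summed to means of 5.83, 3.85 and 4.21, and the fibroblast markers to 295, 316 and 247, of which COL1A1 held 284, 305 and 236.

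At an adjusted p under 0.05, 12 of 36 members were higher in CBFB KO (33.3%, against 11.7% of all genes tested) and 5 were lower (13.9%, against 7.97%). In RUNX1 KO1, 19 of 41 were higher (46.3%, against 19.7%) and 7 were lower (17.1%, against 19.9%). In RUNX1 KO2, 5 of 40 were higher (12.5%, against 8.76%) and 4 were lower (10.0%, against 6.08%), shares near those of all genes. Once the dependence on transcript length and GC was taken out, CBFB KO had 13 higher and 6 lower. RUNX1 KO1 then had 17 higher and 7 lower, and RUNX1 KO2 had 4 higher and 5 lower. No share of all genes is given for that setting. Most members are well expressed, so the members with a mean of at least 100 were also set against all genes with such a mean. Of 30 such members in CBFB KO, 12 (40.0%) were higher and 4 (13.3%) lower, against 13.9% and 8.75% of all such genes. Of 29 in RUNX1 KO1, 17 (58.6%) were higher and 6 (20.7%) lower, against 22.8% and 26.1%. Of 29 in RUNX1 KO2, 4 (13.8%) were higher and 3 (10.3%) lower, against 8.48% and 6.66%. The median log2 fold change of these members was 0.35, 0.27 and 0.13, while that of all such genes was 0.00, -0.02 and 0.00.

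A fold change of at least 2 in addition left 4 of 36 members in CBFB KO (11.1%, against 2.98% of all genes tested), 6 of 41 in RUNX1 KO1 (14.6%, against 4.93%) and 5 of 40 in RUNX1 KO2 (12.5%, against 5.48%). These were 8 genes in all, with 1 higher and 3 lower in CBFB KO, 4 higher and 2 lower in RUNX1 KO1, and 2 higher and 3 lower in RUNX1 KO2. ITGB6 was the member 2-fold higher in all comparisons, and ITGB2 and ITGA10 were 2-fold lower in all comparisons. ITGB8 passed in CBFB KO, ITGAV and ITGA2 in RUNX1 KO1, NEDD9 in both RUNX1 clones and ITGA4 in RUNX1 KO2. Of the 42 members, 13 were past the adjusted p in no table, among them ITGAD, which had no adjusted p in any. No member was called in opposite directions between tables. The shares of all genes for these counts were not worked out.

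**Figure D1:**
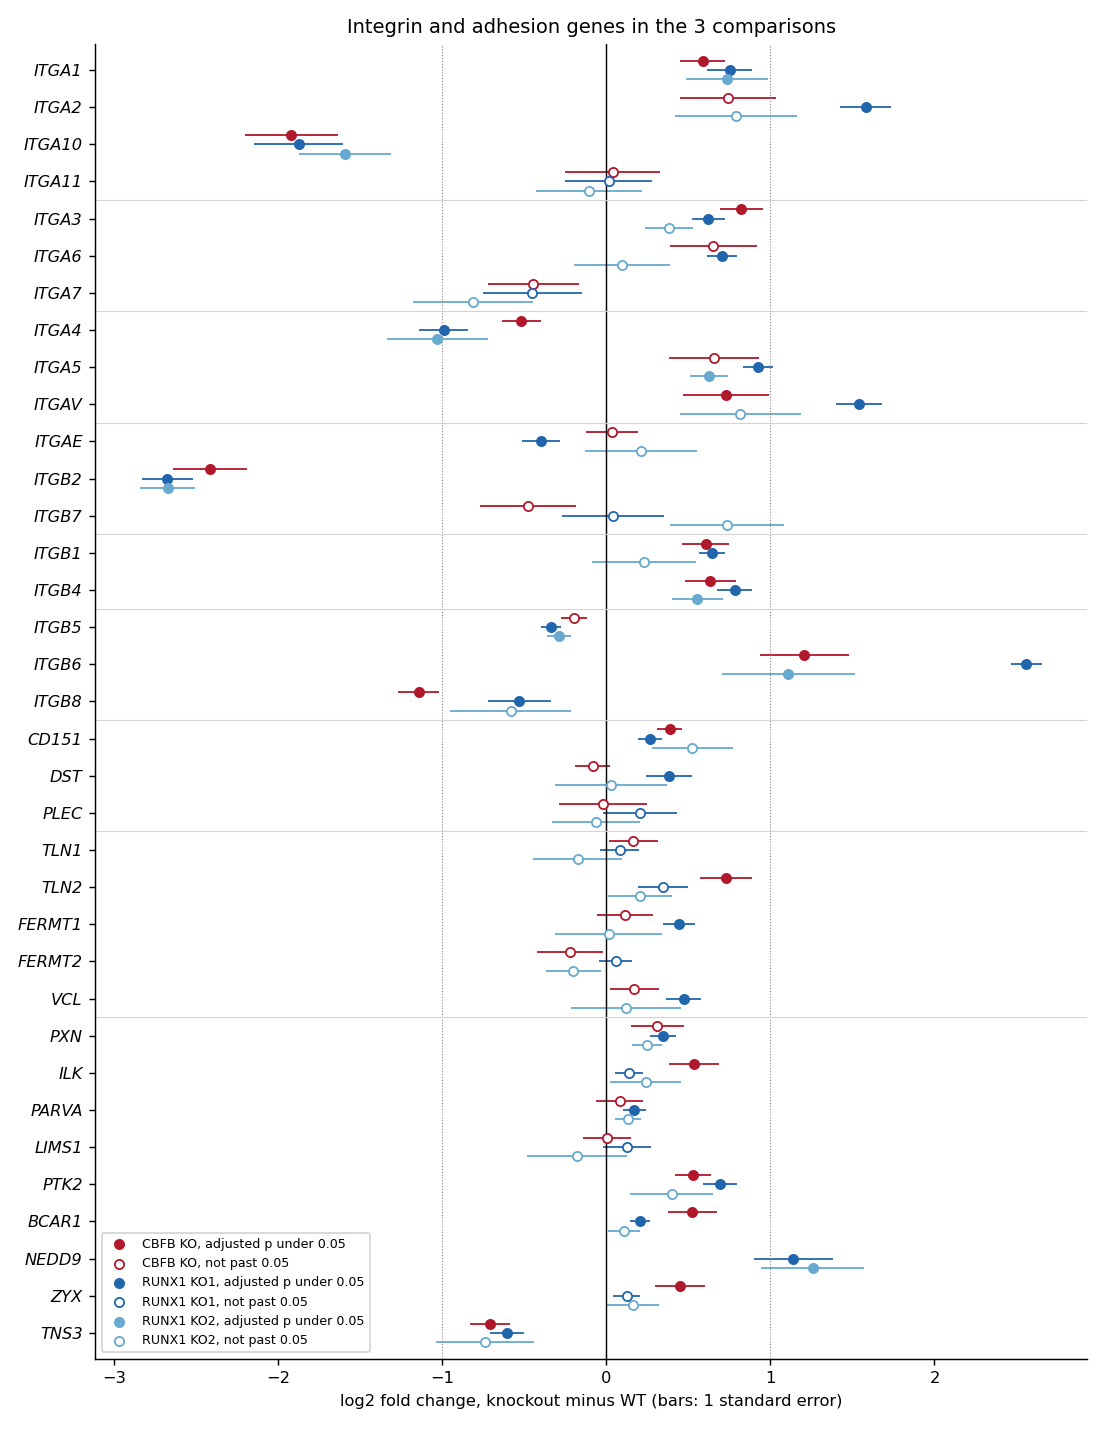
Log2 fold change (knockout minus WT) of members with a mean of at least 10 in some table, with 1 SE; filled points passed an adjusted p of 0.05, dotted lines mark a 2-fold change and grey lines separate roles. ITGB2 lies at -2.42, -2.68 and -2.67, and ITGB6 at 1.21, 2.56 and 1.11.

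The depth behind the values was high for most members, and their precision differed between tables. For members with a mean of at least 100, the median SE was 0.15 in CBFB KO, 0.10 in RUNX1 KO1 and 0.27 in RUNX1 KO2, and for all such genes it was 0.12, 0.10 and 0.21. The highest SE of such a member was 0.29, 0.23 and 0.40. At these SEs, a member typically needed a larger change in RUNX1 KO2 to be called. The median absolute log2 fold change of members with a mean of at least 100 was 0.53, 0.47 and 0.25. For all such genes it was 0.16, 0.24 and 0.21. The part of the SE in the lower number of calls in RUNX1 KO2 was not tested. Members had longer transcripts than other genes, with a median of 4.92 kb in CBFB KO, against 3.53 kb. Fold changes of all genes with a mean of at least 100 were related to transcript length (Spearman's rho across genes -0.09, 0.37 and -0.10) and to GC content (0.26, -0.05 and 0.35), which is a description across genes, since genes are not replicates.

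Per kb of transcript, the strongest members included the laminin receptor subunits that basal epithelium uses. ITGB1, the common beta subunit of the largest integrin family, was first in all tables, at 7831, 5369.7 and 4361 normalized counts per kb (mean over WT and knockout). CD151, a tetraspanin that binds laminin receptors, followed at 3825, 4025 and 4295, next to ITGA6 at 3978, 2228 and 1653. ITGA3 was at 3529, 2780.3 and 2377 per kb, and ITGB4 at 3202, 2476 and 2118. These 5 genes were among the top 7 in every table, and their order was not tested. At the other end, 7 members (ITGA9, ITGA2B, ITGAD, ITGAL, ITGAM, ITGAX and ITGB3) had a mean under 10 in every table that listed them. Integrin members together held 0.534%, 0.404% and 0.360% of the summed means.

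The laminin-binding subunits were higher where they were called. ITGB4, the partner of ITGA6 in the hemidesmosome, stood at 14855 normalized counts in WT and 23053 in CBFB KO, 10778 and 18538 in the RUNX1 KO1 table, and 10152 and 14915 in the RUNX1 KO2 table. Its log2 fold change was 0.63 (SE 0.15, adjusted p = 5.11e-04), 0.78 (SE 0.11, adjusted p = 6.25e-12) and 0.55 (SE 0.15, adjusted p = 0.00372), and thus it rose in all comparisons, by 1.55, 1.72 and 1.47 times. Once the dependence on transcript length and GC was taken out of the fold changes, the RUNX1 KO2 value was 0.35 (adjusted p = 0.135) and no longer passed. ITGB1 was at 23507 normalized counts in WT and 35759.6 in CBFB KO, 15875 and 24763 in the RUNX1 KO1 table, and 15201 and 17806 in the RUNX1 KO2 table. It rose in CBFB KO by 0.61 (SE 0.14, adjusted p = 3.48e-04) and in RUNX1 KO1 by 0.64 (SE 0.08, adjusted p = 3.04e-14) on the log2 scale, and in RUNX1 KO2 the value was 0.23 (SE 0.32, adjusted p = 0.767). ITGA3, which pairs with beta1 to bind laminin-332, was at 12459.7 normalized counts in WT and 22040.2 in CBFB KO, 10710.2 and 16469.7 in the RUNX1 KO1 table, and 10085 and 13153 in the RUNX1 KO2 table. It rose in CBFB KO (0.82, SE 0.13, adjusted p = 2.66e-08) and RUNX1 KO1 (0.62, SE 0.10, adjusted p = 9.07e-09), while RUNX1 KO2 gave 0.38 (SE 0.15, adjusted p = 0.0552). ITGA6 was at 17379 normalized counts in WT and 27316 in CBFB KO, 9524 and 15505 in the RUNX1 KO1 table, and 8983 and 9594 in the RUNX1 KO2 table, with 0.65 (SE 0.26, adjusted p = 0.0640) in CBFB KO, 0.70 (SE 0.09, adjusted p = 1.84e-13) in RUNX1 KO1, where it rose, and 0.09 (SE 0.29, adjusted p = 0.911) in RUNX1 KO2. With the length and GC trend removed, the CBFB KO value of ITGA6 passed (adjusted p = 0.0440). ITGA7, the third laminin-binding alpha subunit and mainly a muscle gene, had means of 8.08, 10.0 and 8.70 and was not called.

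Among hemidesmosome proteins, CD151 rose in CBFB KO by 0.39 (adjusted p = 9.70e-06) and in RUNX1 KO1 by 0.27 (adjusted p = 0.00107), with 0.52 (adjusted p = 0.159) in RUNX1 KO2. PLEC, which encodes plectin, had the highest mean of all members before division by length (35367, 20408 and 17249) and was called in no table, with log2 fold changes of -0.02, 0.20 and -0.06. DST, which encodes dystonin, rose in RUNX1 KO1 (0.38, adjusted p = 0.0184) and had values of -0.08 and 0.03 in the other comparisons. In the wider list of 11 hemidesmosome and laminin-332 genes, 5 of which are members, the higher and lower calls numbered 4 and 1 in CBFB KO, then 9 and 1 in RUNX1 KO1. In RUNX1 KO2, 3 of 10 listed were higher and 0 lower. Over all genes tested, the higher and lower shares were 11.7% and 7.97% (CBFB KO), 19.7% and 19.9% (RUNX1 KO1) and 8.76% and 6.08% (RUNX1 KO2). The median log2 fold change of the list was 0.39, 0.60 and 0.35. KRT5, the lower gene, had -0.27 and -0.24 where called.

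**Figure D2:**
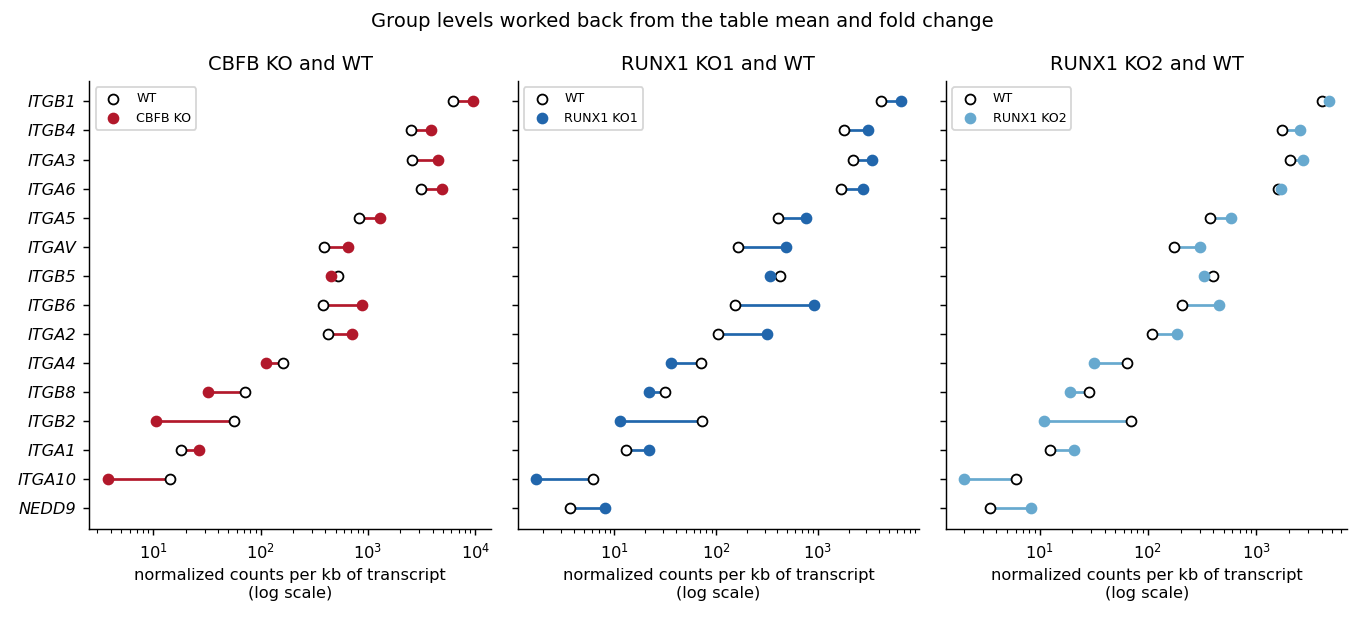
Normalized counts per kb of transcript (log scale) in WT (open) and knockout (filled), worked back from the table mean and fold change, for 15 members in each of the 3 tables. ITGB6 moves from 154 to 908 per kb in RUNX1 KO1 and ITGB2 from 73.3 to 11.5, while NEDD9 has no value in the CBFB KO table.

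The beta subunits that pair with alphaV moved in different directions. Integrins alphaVbeta6 and alphaVbeta8 bind latent TGF-beta and release the active cytokine, alphaVbeta6 mainly in epithelia, and alphaVbeta5 binds vitronectin. ITGB6 was at 1783 normalized counts in WT and 4112 in CBFB KO, 719 and 4246 in the RUNX1 KO1 table, and 972 and 2097 in the RUNX1 KO2 table. The knockout level was above WT in every table. Its log2 fold change was 1.21 (SE 0.27, adjusted p = 1.41e-04) in CBFB KO, 2.56 (SE 0.10, adjusted p = 2.40e-151) in RUNX1 KO1 and 1.11 (SE 0.40, adjusted p = 0.0423) in RUNX1 KO2, folds of 2.31, 5.90 and 2.16. The RUNX1 KO2 value had the largest SE of the 3. Of the 24 nearest genes with a mean of at least 100 around ITGB6, 10 were higher and 2 lower in RUNX1 KO1. Their median log2 fold change was 0.21, and the shares of all such genes were 22.8% higher and 26.1% lower. Higher and lower neighbours numbered 4 and 2 in CBFB KO, and 2 and 2 in RUNX1 KO2. The part of this region in the ITGB6 values was not tested. The 2 RUNX1 tables use the same WT samples, yet after scaling the WT level of ITGB6 worked back from the RUNX1 KO2 table was 0.52 (log2) above that from the RUNX1 KO1 table. For the 29 members with a mean of at least 100 the median absolute difference was 0.01, and it was over 0.1 in 3 of them. Set against the WT level of the RUNX1 KO1 table, a calculation chosen after seeing the data, ITGB6 in RUNX1 KO2 would be 1.82 above WT on the log2 scale rather than 1.11. The other 2 members over 0.1 were ITGAV (1.04 rather than 0.82) and ITGA2 (0.99 rather than 0.79). ITGB6, ITGAV and ITGA2 had SEs of 0.40, 0.37 and 0.37 in RUNX1 KO2 and of 0.10, 0.14 and 0.16 in RUNX1 KO1. The levels were worked back from fold changes moderated toward 0, and the part of that moderation in these gaps was not tested.

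ITGB8 was at 619 normalized counts in WT and 280.1 in CBFB KO, 277 and 192 in the RUNX1 KO1 table, and 251 and 167 in the RUNX1 KO2 table. It fell in CBFB KO by 1.14 (SE 0.13, adjusted p = 1.08e-17) and in RUNX1 KO1 by 0.53 (SE 0.19, adjusted p = 0.0168) on the log2 scale, and RUNX1 KO2 gave -0.58 (SE 0.37, adjusted p = 0.356). ITGB5 had means of 2133, 1662 and 1594 and log2 fold changes of -0.20 (adjusted p = 0.0551) in CBFB KO, -0.34 (adjusted p = 1.20e-07) in RUNX1 KO1 and -0.29 (adjusted p = 0.00111) in RUNX1 KO2. The CBFB KO value missed the threshold as deposited and passed it under 2 other settings, over genes with a mean of at least 100 (adjusted p = 0.0476) and with the length and GC trend removed (adjusted p = 0.0120). ITGB3, the beta subunit of platelets, had few reads, with means of 5.04, 4.27 and 3.11, and was called higher in RUNX1 KO1 (0.91, adjusted p = 0.0113). As a share of the summed level per kb of these 4 beta subunits, ITGB6 made up 39.1% in WT and 64.3% in CBFB KO. The shares were 25.2% and 71.7% in the RUNX1 KO1 table and 32.6% and 56.3% in the RUNX1 KO2 table. ITGB5 went from 53.5% to 33.2%, from 69.5% to 26.5% and from 62.8% to 41.2%. These shares carry no test, since they add up genes of 1 table, and they concern mRNA and not receptors on the surface. The WT shares of the 2 RUNX1 tables describe the same samples and differ through the working back from each table.

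**Figure D3:**
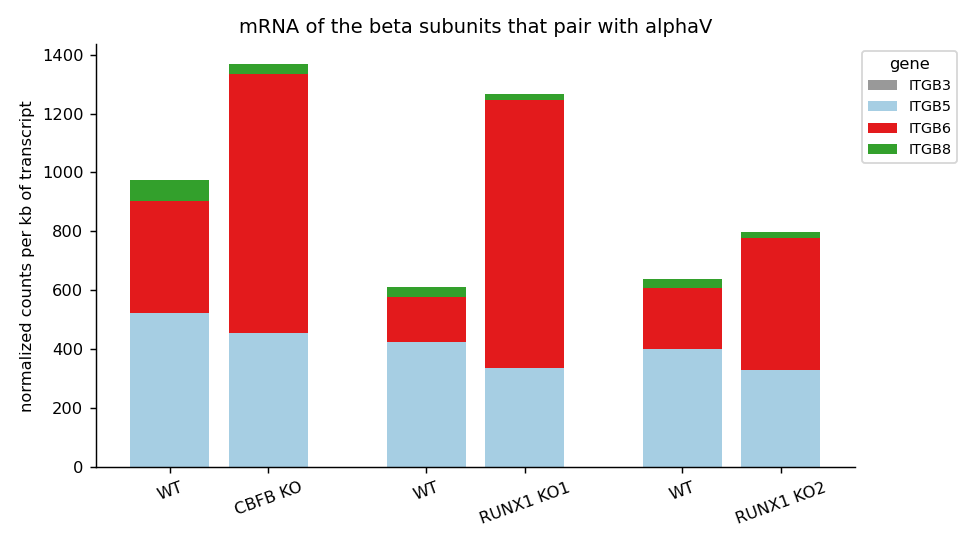
Summed level per kb of transcript of ITGB3, ITGB5, ITGB6 and ITGB8 mRNA in WT and knockout of each table, worked back from the mean and fold change, with no error available per sample. The WT bars beside RUNX1 KO1 and RUNX1 KO2 describe the same samples. ITGB6 is the largest part of each knockout bar (64.3%, 71.7% and 56.3%) and ITGB5 of each WT bar (53.5%, 69.5% and 62.8%).

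ITGAV itself, the alpha subunit of these receptors, was at 2734 normalized counts in WT and 4530.3 in CBFB KO, 1164 and 3383 in the RUNX1 KO1 table, and 1216 and 2143 in the RUNX1 KO2 table. It rose in CBFB KO by 0.73 (SE 0.26, adjusted p = 0.0310) and in RUNX1 KO1 by 1.54 (SE 0.14, adjusted p = 1.10e-26), and in RUNX1 KO2 it had 0.82 (SE 0.37, adjusted p = 0.132). ITGA5, which with beta1 forms the main fibronectin receptor, had means of 4744, 2583 and 2128. ITGA5 rose in RUNX1 KO1 (0.92, adjusted p = 4.21e-22) and RUNX1 KO2 (0.62, adjusted p = 1.82e-06), with 0.65 (adjusted p = 0.0774) in CBFB KO. ITGA4, which with beta1 binds VCAM1 and an alternatively spliced part of fibronectin, went the other way. It was at 673 normalized counts in WT and 469.7 in CBFB KO, 297 and 149 in the RUNX1 KO1 table, and 271 and 132 in the RUNX1 KO2 table. Its log2 fold change was -0.52 (SE 0.12, adjusted p = 2.20e-04), -0.99 (SE 0.15, adjusted p = 6.95e-10) and -1.03 (SE 0.31, adjusted p = 0.00815), and it thus fell in all comparisons. ITGA9 and ITGA2B were at means of at most 5.86 and were not called, and ITGA9 had no adjusted p in CBFB KO.

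The collagen-binding alpha subunits also split. ITGA2, the collagen receptor subunit typical of epithelia, was at 3353 normalized counts in WT and 5601 in CBFB KO, 826 and 2473 in the RUNX1 KO1 table, and 851 and 1474 in the RUNX1 KO2 table. It rose in RUNX1 KO1 by 1.58 (SE 0.16, adjusted p = 1.39e-22), a fold of 2.99, while CBFB KO gave 0.74 (SE 0.29, adjusted p = 0.0563) and RUNX1 KO2 0.79 (SE 0.37, adjusted p = 0.155). The CBFB KO value of ITGA2 passed over genes with a mean of at least 100 (adjusted p = 0.0487) and with the length and GC trend removed (adjusted p = 0.0324). ITGA1 was at 193 normalized counts in WT and 289 in CBFB KO, 139 and 234 in the RUNX1 KO1 table, and 133 and 222 in the RUNX1 KO2 table, and rose in all comparisons, by 0.59 (SE 0.14, adjusted p = 3.34e-04), 0.75 (SE 0.14, adjusted p = 3.06e-07) and 0.74 (SE 0.25, adjusted p = 0.0254). ITGA1 and ITGA2 lie close together on chromosome 5, so the neighbours counted for each overlap and describe the same region. Of the 24 nearest genes with a mean of at least 100 around ITGA1, 12 were higher and 0 lower in CBFB KO, with a median log2 fold change of 0.39, and around ITGA2 11 were higher and 0 lower, with a median of 0.21. Around ITGA1 in the RUNX1 clones, 5 were higher and 4 lower (RUNX1 KO1) and 1 higher and 2 lower (RUNX1 KO2). Of all genes with such a mean, 13.9% were higher and 8.75% lower in CBFB KO. The same shares were 22.8% and 26.1% in RUNX1 KO1, and 8.48% and 6.66% in RUNX1 KO2. The part of this region in the CBFB KO values was not tested. ITGA10, best known from cartilage, was at 74.7 normalized counts in WT and 19.7 in CBFB KO, 32.7 and 8.91 in the RUNX1 KO1 table, and 32.0 and 10.6 in the RUNX1 KO2 table. It fell in all comparisons, with -1.92 (SE 0.28, adjusted p = 6.04e-10), -1.88 (SE 0.27, adjusted p = 6.11e-11) and -1.59 (SE 0.28, adjusted p = 4.28e-07), by 3.79, 3.67 and 3.02 times. ITGA11, a fibroblast collagen receptor subunit, had means of 24.2, 18.9 and 17.1 and log2 fold changes between -0.11 and 0.04, none of them called.

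ITGB2, the beta2 subunit that leukocytes use, had the largest decrease of any member in each table. It was at 178 normalized counts in WT and 33.3 in CBFB KO, 233 and 36.4 in the RUNX1 KO1 table, and 221 and 34.6 in the RUNX1 KO2 table. Its log2 fold change was -2.42 (SE 0.22, adjusted p = 1.01e-24) in CBFB KO, -2.68 (SE 0.15, adjusted p = 6.62e-66) in RUNX1 KO1 and -2.67 (SE 0.17, adjusted p = 1.27e-54) in RUNX1 KO2, so that WT was 5.35, 6.39 and 6.38 times the knockout. The alpha subunits it pairs with, ITGAL, ITGAM, ITGAX and ITGAD, had means from 0.414 to 3.27 in the CBFB KO table. Their means ran from 1.01 to 2.49 (3 listed) in RUNX1 KO1 and from 0.827 to 2.59 (3 listed) in RUNX1 KO2. None had an adjusted p in CBFB KO, nor had ITGAL in RUNX1 KO2, so these could not be called there. Where an adjusted p was given, none was called. Leukocyte markers other than LCP1 summed to means of 1.02 (CD3E, PTPRC and SPI1), 0.247 and 0.650 (CD3E and SPI1). LCP1, an actin-bundling protein, was at 6459, 5350.2 and 4811, and had log2 fold changes of 0.49, 0.21 and 0.08, of which the first 2 were called higher. ITGAE, the alpha subunit of intraepithelial T cells, had means of 393, 419 and 499 and fell in RUNX1 KO1 alone (-0.40, adjusted p = 0.00274, against 0.03 and 0.21 elsewhere, a difference in calls that was past the threshold in no test between comparisons). Its partner ITGB7 had means of 10.1, 6.45 and 8.83 and was not called.

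Of the cytoplasmic proteins, NEDD9 alone passed the 2-fold threshold. Of 5 talin, kindlin and vinculin genes, TLN2 rose in CBFB KO (0.73, adjusted p = 5.51e-05), and FERMT1 (0.44, adjusted p = 5.66e-05) and VCL (0.47, adjusted p = 5.91e-05) rose in RUNX1 KO1. TLN1, the main talin of most cells, had log2 fold changes of 0.16, 0.08 and -0.18, and FERMT2, the kindlin found at focal adhesions of most adherent cells, -0.22, 0.06 and -0.20, with no call in any table. None of the 5 genes was lower past the threshold. Among the 9 adaptors and kinases, PTK2, the focal adhesion kinase, rose in CBFB KO (0.53, adjusted p = 1.92e-05) and RUNX1 KO1 (0.69, adjusted p = 6.00e-10), as did BCAR1, its scaffold substrate, with 0.52 (adjusted p = 0.00507) and 0.20 (adjusted p = 0.00364). ILK (0.53, adjusted p = 0.00497) and ZYX (0.45, adjusted p = 0.0240) rose in CBFB KO, and PXN (0.34, adjusted p = 7.37e-05) and PARVA (0.17, adjusted p = 0.0431) in RUNX1 KO1. TNS3, which links integrin tails to actin, was lower, with -0.71 (adjusted p = 1.79e-07) in CBFB KO, -0.60 (adjusted p = 7.05e-08) in RUNX1 KO1 and -0.74 (adjusted p = 0.0747) in RUNX1 KO2, which missed the threshold. LIMS1, which has near-identical copies that may share its reads, had values of 0.00, 0.13 and -0.18 and was not called. With the length and GC trend removed, the calls of ZYX in CBFB KO (adjusted p = 0.140) and of DST, PARVA and BCAR1 in RUNX1 KO1 (adjusted p = 0.214, 0.986 and 0.229) were lost.

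NEDD9, a scaffold related to BCAR1 that takes part in cell migration, was at 16.7 in WT and 36.8 in RUNX1 KO1, and at 15.7 and 37.5 in the RUNX1 KO2 table. It rose by 1.14 (SE 0.24, adjusted p = 1.81e-05) in RUNX1 KO1 and by 1.26 (SE 0.32, adjusted p = 0.00104) in RUNX1 KO2, folds of 2.20 and 2.39 on a low level.

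The promoters of members called 2-fold were examined for the RUNX core sites TGTGGT and TGCGGT, because these cells lack RUNX1 or its partner by label. RefSeq promoter windows (GRCh38.p14) of 300 bases, 250 before and 50 after the start, were available for 28 of the 42 members. Either letter string, on either strand, was in 9 of 47 member windows (19.1%) and in 19.6% of 35116 windows of all genes. By gene, 7 of 28 members (25.0%) held one, against 22.9% of 27305 genes, which sets the members close to all genes. They were ITGA6, ITGB5, ITGA2, NEDD9, DST, TNS3 and ITGAM. Of the 8 members called 2-fold, 7 had a window and 2 of these held a site. ITGB2 had no window, and the windows of ITGA4, ITGAV, ITGB8, ITGB6 and ITGA10 held none. Windows of 4 of them are shown 5' to 3' on the gene's strand, with any core site in capitals. ITGA2 (chr5:52989102-52989401, plus strand) and NEDD9 (chr6:11382299-11382598, minus strand, the first of its 3 windows) are those with a site, beginning at position -179 and 31 from the start, and ITGB6 (chr2:160200223-160200522, minus strand) and ITGA10 (chr1:145910001-145910300, minus strand) had none:
ITGA2: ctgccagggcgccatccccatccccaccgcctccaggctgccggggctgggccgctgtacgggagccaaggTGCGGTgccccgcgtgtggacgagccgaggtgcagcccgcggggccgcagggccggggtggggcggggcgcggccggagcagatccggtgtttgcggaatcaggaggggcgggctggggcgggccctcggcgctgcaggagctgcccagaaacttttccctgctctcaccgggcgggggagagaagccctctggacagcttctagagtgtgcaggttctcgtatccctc
NEDD9: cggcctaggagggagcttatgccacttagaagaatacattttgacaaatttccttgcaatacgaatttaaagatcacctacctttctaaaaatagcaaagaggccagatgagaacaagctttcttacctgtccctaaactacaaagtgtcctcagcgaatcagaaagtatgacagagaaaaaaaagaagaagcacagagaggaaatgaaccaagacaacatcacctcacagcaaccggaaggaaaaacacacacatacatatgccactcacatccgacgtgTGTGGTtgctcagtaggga
ITGB6: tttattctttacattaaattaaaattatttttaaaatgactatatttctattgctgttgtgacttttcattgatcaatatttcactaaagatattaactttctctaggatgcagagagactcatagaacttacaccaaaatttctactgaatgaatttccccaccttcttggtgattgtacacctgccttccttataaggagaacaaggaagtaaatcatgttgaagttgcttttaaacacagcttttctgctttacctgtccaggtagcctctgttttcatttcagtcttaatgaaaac
ITGA10: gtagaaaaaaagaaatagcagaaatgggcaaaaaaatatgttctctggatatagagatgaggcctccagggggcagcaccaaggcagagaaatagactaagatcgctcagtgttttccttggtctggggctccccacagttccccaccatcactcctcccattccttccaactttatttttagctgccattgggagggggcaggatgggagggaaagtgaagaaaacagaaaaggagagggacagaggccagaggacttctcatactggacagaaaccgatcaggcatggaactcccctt
A match is a description of letters and not a bound site, and no match says nothing of sites elsewhere.

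Whether CBFB KO and a RUNX1 clone differed in a member was tested on the difference of the log2 fold changes over its combined SE, adjusted over all genes tested in both tables. The test takes the WT groups of both experiments as equivalent, and the experiment and the knocked-out gene cannot be told apart. It also takes the fold changes as unmoderated, while the deposited ones are moderated toward 0. Against RUNX1 KO1, 1 of 36 members passed (2.78%, against 9.84% of all genes). This was ITGB6, with a difference of -1.36 (SE 0.29, 95% interval -1.92 to -0.79, adjusted p = 0.000187), so that its rise was smaller in CBFB KO. Another 7 had an unadjusted p under 0.05 but did not pass, among them ITGAV with -0.81 (adjusted p = 0.0578), ITGB8 with -0.61 (adjusted p = 0.0667) and ITGA2 with -0.84 (adjusted p = 0.0853). Against RUNX1 KO2, 0 of 36 passed this two-sided normal test (against 2.9% of all genes), and 4 had an unadjusted p under 0.05, namely ITGB7, BCAR1, ITGA3 and TLN2. The shares of all genes with an unadjusted p under 0.05 were not worked out, so the unadjusted counts are not read as a result. For ITGB2 the 95% interval of the difference ran from -0.28 to 0.79 against RUNX1 KO1 and from -0.29 to 0.80 against RUNX1 KO2, and for ITGB4 from -0.52 to 0.22 and from -0.35 to 0.51. A p that misses the threshold does not show equal changes.

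**Figure D4:**
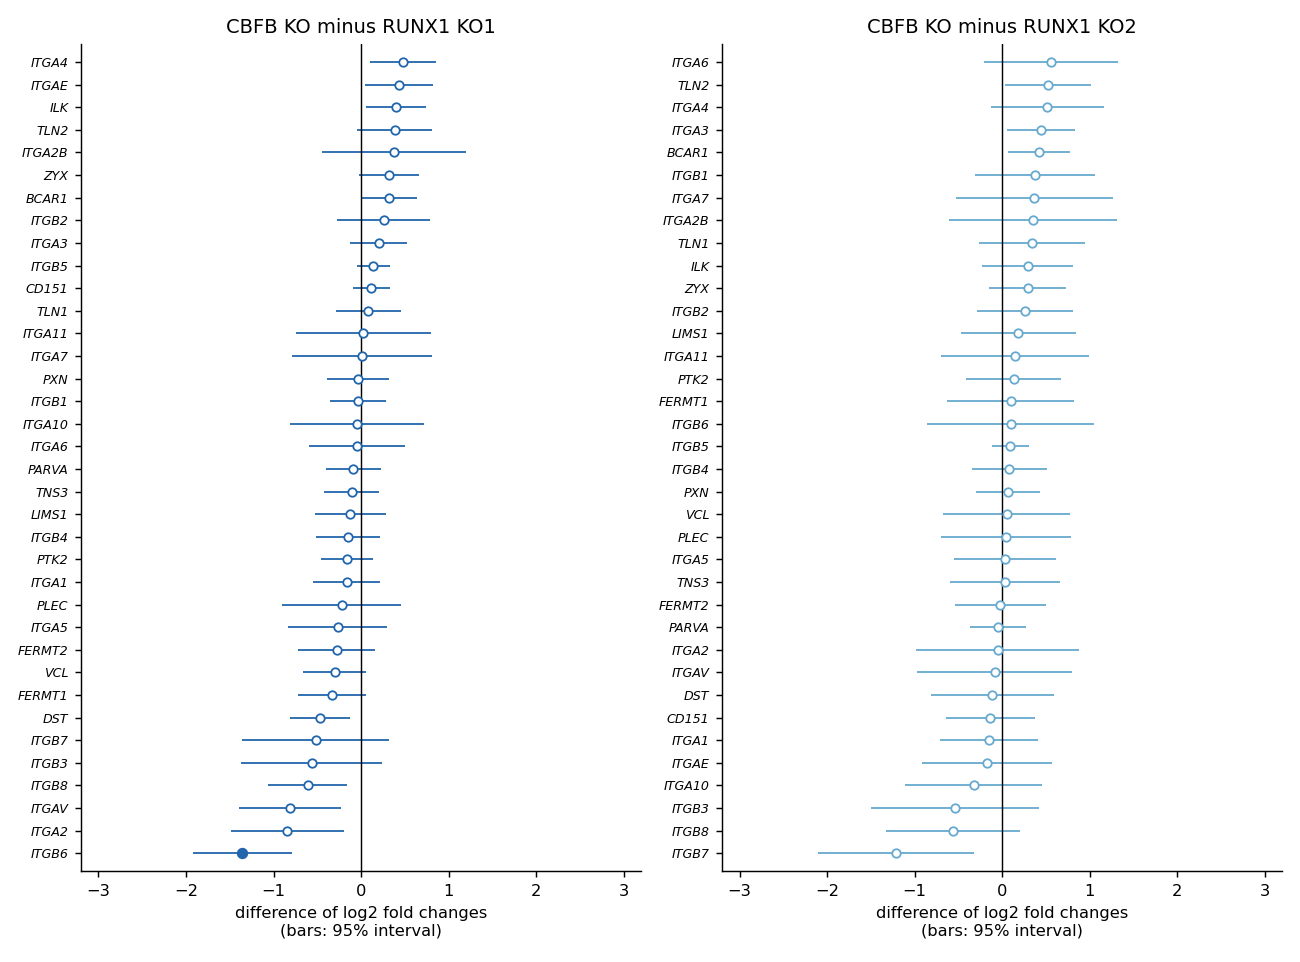
Difference of log2 fold changes, CBFB KO minus RUNX1 KO1 (left) and minus RUNX1 KO2 (right), with 95% intervals, for the 36 members tested in both tables; filled points passed an adjusted p of 0.05. ITGB6 against RUNX1 KO1, at -1.36, is the filled point.

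Other genes of integrin adhesion were counted in lists, to be read against the shares of all genes tested that were higher and lower, 11.7% and 7.97% in CBFB KO, 19.7% and 19.9% in RUNX1 KO1, and 8.76% and 6.08% in RUNX1 KO2. Of 27 matrix ligands of integrins tested in CBFB KO, 6 were higher and 1 lower, of 28 in RUNX1 KO1, 17 higher and 2 lower, and of 28 in RUNX1 KO2, 11 higher and 2 lower. FN1, the gene of fibronectin, rose by 0.97, 3.13 and 2.21, and TNC, the gene of tenascin-C and a ligand of alphaVbeta6, by 1.89, 2.73 and 1.67 on the log2 scale. COL1A1 rose by 1.40, 1.75 and 1.36, and LAMA2, a laminin alpha chain, by 0.998, 1.85 and 1.69, while COL6A3 fell, with -0.90, -0.61 and -1.24. Of the other adhesome proteins, 18 of 64 were higher and 5 lower in CBFB KO, 25 of 66 higher and 7 lower in RUNX1 KO1, and 6 of 65 higher and 3 lower in RUNX1 KO2, the last near the share of all genes. FBLIM1, which binds kindlin and filamin, rose by 1.28, 1.16 and 1.01, TNS1, a tensin like TNS3, by 1.01, 1.57 and 1.22, and the kinase FYN by 0.70, 0.56 and 0.51. FLNC, a filamin at means of 47.5, 23.6 and 21.8, fell, with -2.64, -2.16 and -2.63. Of the tetraspanins and other membrane partners, 5 of 15 were higher and 1 lower in CBFB KO, 7 of 16 higher and 3 lower in RUNX1 KO1, and 2 of 16 higher and 2 lower in RUNX1 KO2. CD9, a tetraspanin that binds integrins, rose in all comparisons (0.74, 0.61 and 0.53), and CAV1, the caveolin of plasma membrane pits, fell in all (-0.49, -0.67 and -0.68). The median log2 fold change was 0.18, 0.43 and 0.30 for the ligands, 0.13, 0.18 and 0.07 for the adhesome proteins and 0.23, 0.10 and 0.26 for the membrane partners, against -0.01, 0.00 and 0.02 for all genes tested.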

How the data were processed

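RNA from 18 MCF10A samples in 5 groups was sequenced, and groups were taken from the sample labels. Libraries were made with a TruSeq mRNA kit per the labels, whereas ribosomal RNA depletion is given in the study's methods. The submitters' processing notes name Trimmomatic, STAR, DESeq2 and build hg19, without versions or settings. The data were the authors' own comparison tables of knockout against WT, 3 in number, which hold 0 columns of values per sample. Matrices that the labels mention were not used here. Each deposited table holds a mean normalized count over both groups, used here as a signal, the authors' log2 fold change with its SE, the test score (the fold change over its SE), and the deposited p-value and adjusted p-value. These columns are the result of the authors' test in DESeq2, read here because they are the only measurements in the tables, and no model was refitted. Fold changes in these tables are moderated toward 0.

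Genes were joined by Entrez ID, and a gene without an adjusted p was not counted as tested. A call required an adjusted p under 0.05, and a 2-fold call also a fold change of at least 2. WT and knockout levels were solved from the mean and the fold change. Differences between comparisons were tested with a two-sided normal test of the fold-change difference divided by the combined SE (Benjamini-Hochberg adjusted). The test was first tried on simulated fold changes, drawn with normal error of the deposited SEs. That simulation left out moderation toward 0 and cannot speak to it. Python 3.11.15, numpy 2.4.6, pandas 2.3.3, scipy 1.17.1 and statsmodels 0.14.6 were used, and figures were drawn with matplotlib 3.10.9. Transcript lengths and GC content came from GENCODE release 29, and promoter windows and gene order from RefSeq (GRCh38.p14), so no hg19 coordinates are given. No depth per sample is known beyond the sums of mean normalized counts, so SEs give the precision. The members, gene lists and tests were chosen with earlier results of these data known. Members were described in full where they passed both thresholds in any table, or the adjusted p in the same direction in all tables. So were members that differed between CBFB KO and a clone, and the laminin and hemidesmosome integrin subunits. In each further list, genes called in the same direction in all tables at a mean of at least 10 were ranked by their smallest absolute fold change. Up to 4 with the largest such value were named. Some genes outside this rule were named after their values were seen (KRT5 of the hemidesmosome list, COL6A3 of the ligands, and LCP1). Alternatives were another set of genes for the adjustment, centred fold changes, removal of a trend on length and GC content, and a fold threshold of 1.5.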

Additional observations from a re-analysis of the deposited data

Results flagged for a closer look

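One result was set apart because the change differed between the CBFB and RUNX1 experiments. The log2 fold change of ITGB6 was 1.21 in CBFB KO and 2.56 in RUNX1 KO1, a difference of -1.36 that passed the test of the difference (adjusted p = 0.000187). Against RUNX1 KO2 the log2 fold change of ITGB6 was 1.11, and its difference from CBFB KO did not pass. Whether the WT groups, the clones, the knocked-out genes or the moderation of fold changes toward 0 account for the difference cannot be told apart.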

How the results depend on the processing

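No paired analysis was possible because the tables hold no value per sample, and for the same reason no replicate could be left out in turn. Across the settings tried, no call changed direction. With a fold threshold of 1.5, the number of members called rose from 4 to 11 in CBFB KO (30.6%, against 8.49% of all genes tested), from 6 to 16 in RUNX1 KO1 (39.0%, against 14.0%) and from 5 to 7 in RUNX1 KO2 (17.5%, against 9.84%). Restricting the test to genes with a mean of at least 100 left 3 members called 2-fold in RUNX1 KO2, since ITGA10 and NEDD9 lie under that mean. The counts of members past the adjusted p stayed within 1.5 times of the reported ones under every setting. Among single genes, removing the trend on transcript length and GC content ended the calls of ZYX in CBFB KO, of DST, PARVA and BCAR1 in RUNX1 KO1, and of ITGB4 in RUNX1 KO2 (log2 fold change 0.35, adjusted p = 0.135), so the rise of ITGB4 in all comparisons depends on that setting. The same setting added calls for ITGA2, ITGA6 and ITGB5 in CBFB KO (adjusted p = 0.0324, 0.0440 and 0.0120), for ILK in RUNX1 KO1 (adjusted p = 0.0149) and for TNS3 in RUNX1 KO2 (adjusted p = 0.0328), and ITGB5 was then lower in all comparisons. It turned the RUNX1 KO2 count from 5 higher and 4 lower to 4 higher and 5 lower. The CBFB KO count went from 12 higher and 5 lower to 13 and 6, and that of RUNX1 KO1 from 19 and 7 to 17 and 7. Testing over genes with a mean of at least 100 added ITGA2 and ITGB5 in CBFB KO and PXN in RUNX1 KO2, and centring added TLN2 in RUNX1 KO1 and PXN in RUNX1 KO2. Taking the WT level from the RUNX1 KO1 table, added after seeing the data, moved ITGB6 in RUNX1 KO2 from 1.11 to 1.82. Values rest on 1 clone per group.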
